A study of Mus musculus with 6 samples.

Results

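This account covers 10 genes that build, lock and fold the chromosome scaffold during cell division: the cohesin ring genes Smc1a, Smc3 and Rad21, the cohesin acetyltransferase genes Esco1 and Esco2, the condensin core genes Smc2 and Smc4, and the condensin I genes Ncapg, Ncaph and Ncapd2. They were chosen by gene name, and all 10 were found among the 49315 genes of the deposited counts and passed the filter on low counts, which kept 15142 genes. RNA was sequenced from CD8+ T cells sorted from the lymph nodes that drain a B16F10 melanoma (a transplantable mouse tumor line, spelled B26F10 in the sample labels) in female C57BL/6J mice of wild-type genotype. The combination group (3 mice) received HCW9218 under the skin and an antibody against PD1, the inhibitory receptor of activated T cells, into the peritoneum. The monotherapy group (3 mice) received HCW9218 alone. HCW9218 is the TGF-βRII/IL-15 immunotherapeutic complex of the series title. Both groups carried it, so each value below is relative to HCW9218 and not to untreated mice. Treatment was given as a single dose at a tumor size of 50 to 100 mm3, and cells were taken on day 5. The age of the mice is not given in the sources used here.

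Cohesin is a ring that holds the copies of a replicated chromosome together and also shapes DNA loops in cells that do not divide. Esco2 and Esco1 acetylate its Smc3 subunit, which secures the ring on DNA. Esco2 does so during DNA replication, while Esco1 also acts outside it. Condensin is a related ring that compacts chromosomes for mitosis, and its I and II forms share Smc2 and Smc4 and differ in their other subunits. In T cells that expand after antigen contact, transcripts tied to replication and mitosis are known to follow the share of cells in division.

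Library depth ran from 34568074 to 40101346 counts. The CD8 T cell markers Cd8a, Cd8b1, Cd3e, Cd3d and Cd3g summed to 3763 to 5024 CPM (counts scaled to library size) in combination libraries and 4122 to 5074 CPM in monotherapy libraries. Markers of B cells summed to 47.3 to 77.7 CPM in the combination and 41.9 to 54.8 CPM in monotherapy, with 1 of 6 (Cd22) higher. Markers of natural killer cells summed to 10.7 to 19.0 CPM in the combination and 5.54 to 7.21 CPM in monotherapy, with 1 of 3 (Klre1) higher, and Ncr1, which defines these cells, lay at 0.129 to 0.290 CPM in the combination and 0.0508 to 0.362 CPM in monotherapy. Myeloid, CD4 T cell and red cell markers had no member past the threshold in edgeR. The pigment-cell genes Dct and Tyrp1 together had 0, 582 and 743 counts in combination libraries 1, 2 and 3, and 1, 0 and 0 counts in the monotherapy libraries. The whole list of 5 pigment-cell genes summed to 29.0 to 51.9 CPM in the combination and 20.9 to 27.1 CPM in monotherapy. Pmel made up most of that sum in every library and overlapped between the groups. It lay at 23.0 to 29.8 CPM in the combination and 20.9 to 27.0 CPM in monotherapy.

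Promoter windows were available for 6 of the 10 genes in the RefSeq table on GRCm38.p6, namely Smc1a, Smc3, Smc2, Ncapg, Ncaph and Ncapd2. Each ran from 250 bases before to 50 bases after the start that RefSeq gives. That start can differ from the gene start in the counts, which for Ncapd2 (125191701) is another position inside the window. The windows are shown for the condensin I genes, which include both condensin members that rose, and for Smc1a, which did not pass. Capitals mark exact matches, on either strand, to the CHR element of cell-cycle promoters (TTTGAA or TTCGAA), the CCAAT box (CCAAT) and the E2F site (TTTCCCGC, TTTGGCGC or TTTCGCGC).
Ncapg (chr5:45669675-45669974, + strand): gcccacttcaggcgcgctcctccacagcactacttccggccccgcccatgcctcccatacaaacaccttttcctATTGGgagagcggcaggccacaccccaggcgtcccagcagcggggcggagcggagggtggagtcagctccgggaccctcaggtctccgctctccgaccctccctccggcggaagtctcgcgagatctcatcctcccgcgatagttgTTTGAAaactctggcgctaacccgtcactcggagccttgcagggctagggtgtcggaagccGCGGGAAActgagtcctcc
Ncaph (chr2:127133905-127134204, - strand): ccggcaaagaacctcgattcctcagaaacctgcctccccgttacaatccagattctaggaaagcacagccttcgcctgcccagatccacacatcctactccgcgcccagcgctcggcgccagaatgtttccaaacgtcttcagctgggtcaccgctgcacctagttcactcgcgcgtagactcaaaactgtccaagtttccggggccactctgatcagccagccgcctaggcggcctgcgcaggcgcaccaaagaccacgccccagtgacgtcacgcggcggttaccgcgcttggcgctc
Ncapd2 (chr6:125191537-125191836, - strand): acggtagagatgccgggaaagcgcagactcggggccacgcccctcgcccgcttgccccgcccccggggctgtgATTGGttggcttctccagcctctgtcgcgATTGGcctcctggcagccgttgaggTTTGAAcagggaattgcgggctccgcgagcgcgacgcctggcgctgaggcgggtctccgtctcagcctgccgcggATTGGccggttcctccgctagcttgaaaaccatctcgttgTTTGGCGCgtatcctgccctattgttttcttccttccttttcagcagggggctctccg
Smc1a (chrX:152016178-152016477, + strand): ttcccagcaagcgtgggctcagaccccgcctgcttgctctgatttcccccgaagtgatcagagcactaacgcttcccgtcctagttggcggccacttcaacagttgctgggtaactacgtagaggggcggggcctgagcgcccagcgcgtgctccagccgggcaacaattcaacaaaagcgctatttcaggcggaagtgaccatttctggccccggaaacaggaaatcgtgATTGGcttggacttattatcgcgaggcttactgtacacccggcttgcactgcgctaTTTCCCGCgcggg
The Ncapg window held 1 CHR match, 1 CCAAT match and 1 E2F match, and the Ncapd2 window held 1, 3 and 1. The Ncaph window held none of these letters. The Smc1a window held 1 CCAAT match and 1 E2F match, the Smc2 window 2 CHR matches and 1 CCAAT match, and the Smc3 window none. Among all 32851 windows of this length, 19.2% held a CHR match, 37.4% a CCAAT match and 1.84% an E2F match. A match describes the sequence and does not show that a factor binds there.

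With the combination, Esco2, Ncapg and Ncaph rose, while the cohesin ring genes, Esco1 and the condensin core genes did not pass the test. The change was 3.88-fold for Esco2, 2.64-fold for Ncapg and 2.13-fold for Ncaph. In edgeR's quasi-likelihood test with Benjamini-Hochberg adjustment over 15142 genes, 3 of the 10 members passed as higher (adjusted p under 0.05) and 0 as lower. Of all genes tested, 0.951% were higher and 0.132% lower. Of the members, 4 had a p under 0.05 before adjustment, against 8% of all genes, and 8 had a log2 fold change above 0, against 49.9% of all genes. Every combination library lay above every monotherapy library for 4 members, against 7.14% of all genes tested, and below for 0, against 7.55%. The median log2 fold change was 0.16 over the 10 members and 0.00 over all genes tested. In bulk RNA, a larger share of dividing cells and more RNA per cell cannot be told apart.

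**Figure D1:**
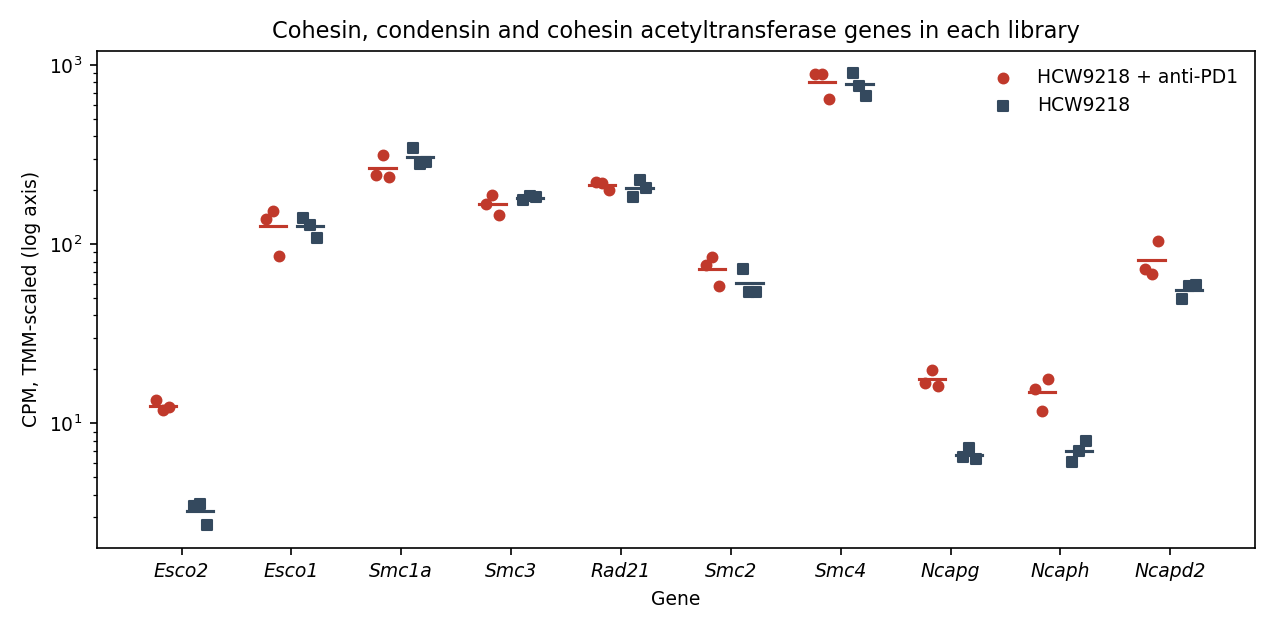
CPM of the 10 genes in each library on a log axis, with combination libraries (red circles) left of monotherapy libraries (dark squares) and a line at each group mean. The groups are apart for Esco2, Ncapg, Ncaph and Ncapd2 and overlap for the other 6 genes.

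Esco2 (ENSMUSG00000022034, chr14:65819038-65833994, minus strand, GRCm38) encodes the acetyltransferase that secures cohesin during replication. It had 13.5, 11.8 and 12.3 CPM in combination libraries 1, 2 and 3, and 3.48, 3.53 and 2.70 CPM in monotherapy libraries 1, 2 and 3. The lowest combination library lay above the highest monotherapy library by more than the whole range within either group. Its log2 fold change was 1.96 ± 0.18 (SE; 95% interval 1.55 to 2.36; edgeR adjusted p = 0.00351), and its p ranked 4 among 15142 genes. The rise passed under each of the 16 other settings tried. Over them the log2 fold change was 1.84 to 2.06 and the adjusted p 1.18e-18 to 0.0369. The counts behind these values were 444, 449 and 477 reads in the combination and 125, 139 and 112 reads in monotherapy. Combination libraries 1, 2 and 3 had 0, 582 and 743 counts of Dct and Tyrp1. With these genes as a covariate, Esco2 had a log2 fold change of 2.06 (edgeR adjusted p = 0.0066). That covariate is partly tied to the groups. Beyond this fit, whether the Dct and Tyrp1 counts bear on the Esco2 level was not tested.

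Esco1 (ENSMUSG00000024293, chr18:10566602-10610352, minus strand) encodes the acetyltransferase that is not restricted to replication. It had 139, 153 and 86.2 CPM in the combination and 141, 127 and 109 CPM in monotherapy, and the groups overlapped. Its log2 fold change was 0.01 ± 0.21 (SE; 95% interval -0.46 to 0.47; adjusted p = 0.997), and its sign changed between settings. Per length, Esco1 was the more abundant of the pair in both groups, at 27.5 ± 7.70 RPKM, the CPM divided by the exon length in kilobases, against 3.13 ± 0.210 RPKM for Esco2 in the combination, and 27.5 ± 3.50 RPKM against 0.807 ± 0.116 RPKM for Esco2 in monotherapy (SD, n = 3 each).

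Within each library, the ratio of Esco2 to Esco1 in RPKM was 0.111, 0.0882 and 0.163 in the combination and 0.0282, 0.0317 and 0.0283 in monotherapy. All combination libraries lay above all monotherapy libraries. The mean log2 ratio was -3.10 ± 0.45 in the combination and -5.09 ± 0.10 in monotherapy (SD, n = 3 each), a difference of 1.99. The exact two-sided permutation p was 0.1, the smallest that 3 libraries against 3 can give, and 0.15 after Benjamini-Hochberg adjustment over the 3 ratios tested.

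The cohesin ring genes overlapped between the groups and none passed the test. Smc1a (ENSMUSG00000041133, chrX:152016428-152062694, plus strand), an ATPase arm of the ring, had 243, 316 and 237 CPM in the combination and 345, 281 and 288 CPM in monotherapy. Smc3 (ENSMUSG00000024974, chr19:53600398-53645833, plus strand), the arm that Esco1 and Esco2 acetylate, had 168, 187 and 146 CPM in the combination and 176, 185 and 184 CPM in monotherapy. Rad21 (ENSMUSG00000022314, chr15:51962605-51991760, minus strand), the kleisin that closes the ring and is cut at anaphase, had 221, 218 and 199 CPM in the combination and 184, 229 and 207 CPM in monotherapy. The log2 fold change was -0.20 for Smc1a (95% interval -0.57 to 0.17), -0.12 for Smc3 (95% interval -0.43 to 0.19) and 0.04 for Rad21 (95% interval -0.27 to 0.35). The intervals leave room for changes of that size, and the lowest adjusted p of the 3 was 0.915.

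The condensin core genes also overlapped between groups. Smc2 (ENSMUSG00000028312, chr4:52439243-52488260, plus strand) had 76.1, 84.9 and 58.3 CPM in the combination and 72.7, 54.3 and 54.1 CPM in monotherapy, a log2 fold change of 0.28 (95% interval -0.12 to 0.68; edgeR adjusted p = 0.837). Smc4 (ENSMUSG00000034349, chr3:69004738-69034623, plus strand) had 890, 885 and 642 CPM in the combination and 898, 765 and 672 CPM in monotherapy, a log2 fold change of 0.05 (95% interval -0.39 to 0.49; edgeR adjusted p = 0.987). Combination library 3 was the lowest of its group for both genes, and also for Smc3, Rad21, Smc1a and Esco1.

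Of the 3 condensin I subunits, Ncapg and Ncaph rose and Ncapd2 did not pass. Ncapg (ENSMUSG00000015880, chr5:45669919-45700546, plus strand), a HEAT-repeat subunit that contacts DNA, had 16.8, 19.8 and 16.2 CPM in the combination and 6.46, 7.29 and 6.29 CPM in monotherapy. The groups were far apart relative to their ranges. Its log2 fold change was 1.40 ± 0.16 (SE; 95% interval 1.05 to 1.75; edgeR adjusted p = 0.00450), and it passed under each of the 16 other settings, with adjusted p of 5.56e-12 to 0.0455. Of its 7066 exon bases, 944 are shared with Lcorl on the opposite strand, where reads of both genes cannot be told apart without strand information. Lcorl had 16.0, 21.2 and 21.6 CPM in the combination and 19.9, 20.1 and 20.3 CPM in monotherapy and did not pass (log2 fold change -0.03).

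Ncaph (ENSMUSG00000034906, chr2:127103809-127133954, minus strand), the kleisin of condensin I, had 15.6, 11.7 and 17.6 CPM in the combination and 6.09, 7.01 and 7.96 CPM in monotherapy. All combination libraries lay above all monotherapy libraries. The log2 fold change was 1.09 ± 0.19 (SE; 95% interval 0.66 to 1.53; edgeR adjusted p = 0.0307). This call was the least secure of the 3 and ended without monotherapy library 1, 2 or 3 (adjusted p = 0.206, 0.171 and 0.108), with library totals as the scaling (0.0708), and with Dct and Tyrp1 (0.0612) or the B cell markers (0.0729) as a covariate. Its log2 fold change stayed between 0.96 and 1.26 in the 16 other settings, whose adjusted p ran from 9.31e-06 to 0.206. It was 1.13 with the Dct and Tyrp1 covariate and 1.19 with the B cell covariate. Both covariates are partly tied to the groups. Dct and Tyrp1 had 1, 0 and 0 counts in monotherapy. Cd22, a B cell marker, was higher in the combination, although the B cell sums overlapped between the groups.

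Ncapd2 (ENSMUSG00000038252, chr6:125168007-125191701, minus strand), the other HEAT-repeat subunit, had 73.1, 67.8 and 104 CPM in the combination and 49.3, 58.3 and 59.3 CPM in monotherapy. The groups did not overlap, and combination library 3 was the highest. Its log2 fold change was 0.56 ± 0.18 (SE; 95% interval 0.16 to 0.95; edgeR adjusted p = 0.322). The interval, which is not adjusted for the number of genes, lay above 0, but Ncapd2 passed in 0 of 16 other settings. Without combination library 3 the log2 fold change was 0.34.

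**Figure D2:**
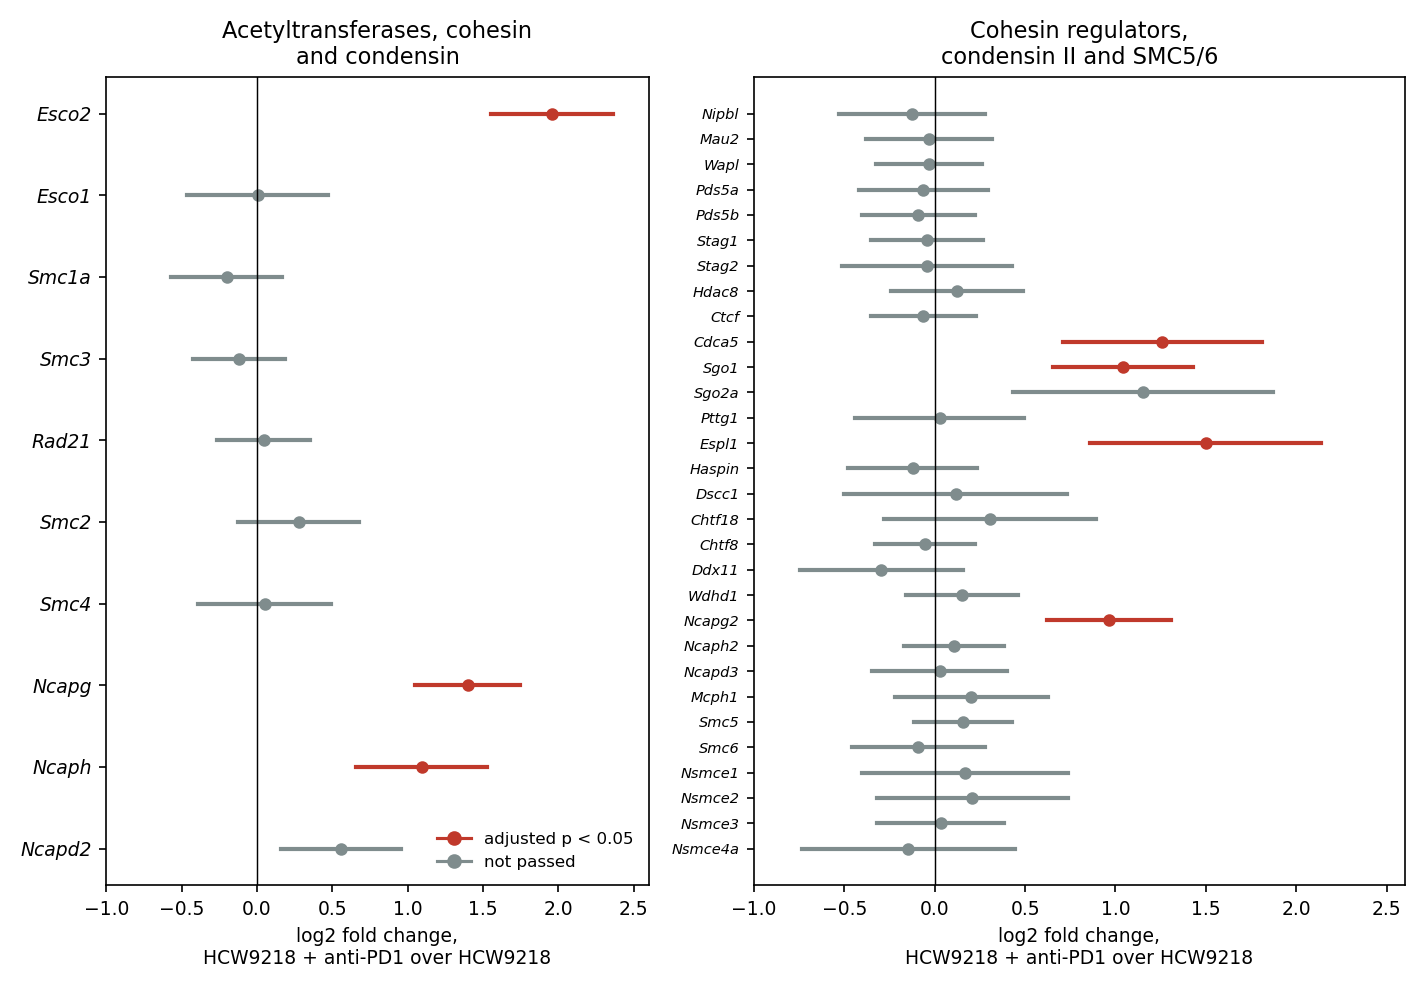
Log2 fold change of the combination over monotherapy with its 95% interval, for the 10 members on the left and for tested cohesin regulators, condensin II and SMC5/6 genes on the right. Red marks adjusted p under 0.05, which Esco2, Ncapg and Ncaph reach on the left and Cdca5, Sgo1, Espl1 and Ncapg2 on the right.

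Ordered by level per length, Smc4 was the most abundant member in both groups, at 155 ± 27.3 RPKM in the combination and 149 ± 21.8 RPKM in monotherapy (SD, n = 3 each). In the combination Rad21, Smc1a, Smc3, Esco1, Smc2, Ncapd2, Ncaph, Esco2 and Ncapg followed. The ranges of neighbours overlapped for Smc3 and Esco1, for Smc2 and Ncapd2 and for Ncaph and Esco2. In monotherapy the order was the same down to Ncaph, with Ncapg and then Esco2 at the bottom, and the ranges of neighbours overlapped for Rad21 and Smc1a. The members that rose were the 3 least abundant, at 2.49 to 3.48 RPKM on average in the combination and 0.807 to 1.63 RPKM in monotherapy.

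RNA levels differed among subunits of one complex. Smc4 stood 12.3, 11.0 and 11.6 times above Smc2 in RPKM in the combination and 13.0, 14.8 and 13.1 times above it in monotherapy, although the proteins pair with each other. Smc1a and Smc3, the corresponding pair of cohesin, differed by less, with Smc1a at 1.39, 1.62 and 1.56 times Smc3 in the combination and 1.89, 1.46 and 1.51 times Smc3 in monotherapy. Within condensin I, Ncapd2 stood 4.92, 3.86 and 7.23 times above Ncapg in the combination and 8.60, 9.02 and 10.6 times above it in monotherapy. Ncapd2 over Ncaph was 3.23, 3.98 and 4.06 in the combination and 5.55, 5.72 and 5.12 in monotherapy. Both ratios were lower in every combination library than in any monotherapy library, while Ncaph over Ncapg overlapped between the groups. These ratios describe the libraries and were not tested.

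The summed condensin core (Smc2 and Smc4) over the summed cohesin arms (Smc1a and Smc3) in RPKM was 2.55, 2.10 and 1.99 in the combination and 2.03, 1.91 and 1.67 in monotherapy. The groups overlapped. The mean log2 ratio was 1.14 ± 0.19 in the combination and 0.90 ± 0.14 in monotherapy (SD, n = 3 each; exact two-sided permutation p = 0.2, adjusted 0.2). The summed condensin I subunits (Ncapg, Ncaph, Ncapd2) over their condensin II counterparts (Ncapg2, Ncaph2, Ncapd3) were 0.400, 0.387 and 0.503 in the combination and 0.248, 0.295 and 0.318 in monotherapy. The groups did not overlap. The mean log2 ratio was -1.23 ± 0.21 in the combination and -1.81 ± 0.18 in monotherapy (SD, n = 3 each), a difference of 0.58 (exact two-sided permutation p = 0.1, the smallest possible; adjusted 0.15).

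**Figure D3:**
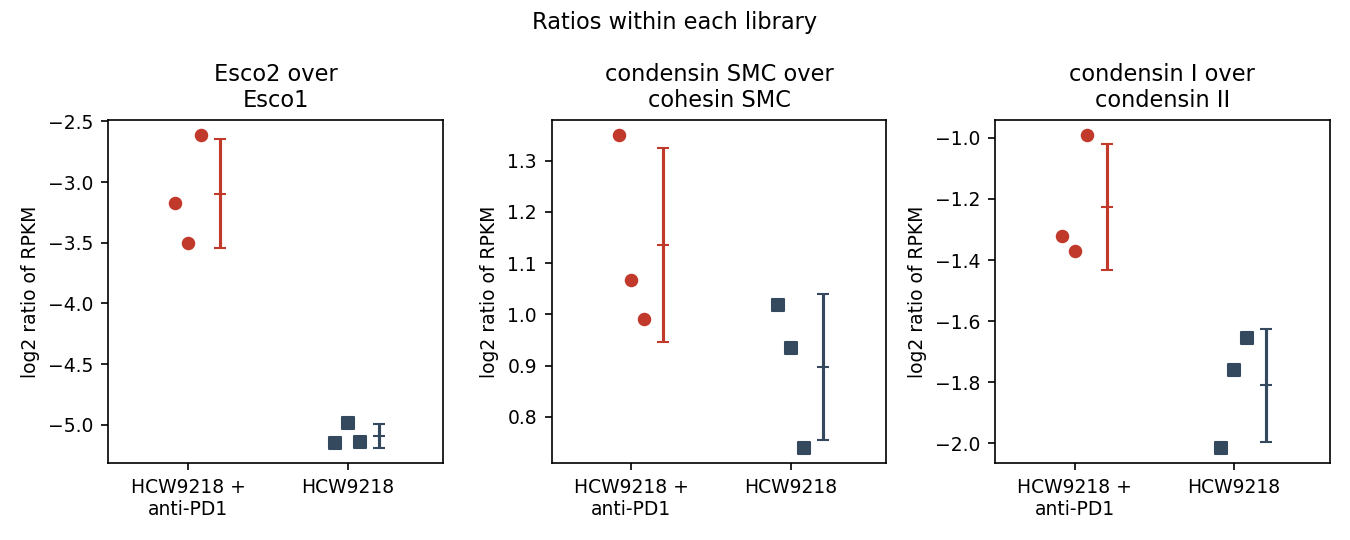
Log2 ratios of RPKM within each library, with combination libraries (red circles) left of monotherapy libraries (dark squares), and the mean and SD beside the points. Esco2 over Esco1 and condensin I over condensin II do not overlap between groups; condensin over cohesin SMC genes does.

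Among other genes of the same machinery and of a mitotic chromosome list, 10 of 41 tested rose, 0 fell and 31 did not pass. The shares over all genes tested were 0.951% higher and 0.132% lower. Of the 10 that rose, 6 came from the mitotic chromosome list. The median log2 fold change of the 41 genes was 0.15. Before adjustment 13 of the 41 had an edgeR p under 0.05, against 8% of all genes, and DESeq2 and limma-voom also called 0 of them lower. The count of genes higher was 4 with library totals as the scaling, 4 without combination library 2, 2, 3 and 2 without monotherapy libraries 1, 2 and 3, 5 with Dct and Tyrp1 as a covariate and 3 with the B cell markers as a covariate. These lists, like the 10 members, were drawn up with earlier results of these data known. Smc1b and Rad21l, cohesin subunits of meiosis, did not pass the count filter.

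Of 20 cohesin regulators, Cdca5, Sgo1 and Espl1 rose and 17 did not pass. Cdca5 encodes sororin, which is recruited by acetylated cohesin and shields it from release, and had 7.63 ± 1.84 CPM in the combination and 3.19 ± 0.687 CPM in monotherapy (SD, n = 3 each; edgeR adjusted p = 0.0474). Sgo1, shugoshin, which guards centromeric cohesion until anaphase, had 8.30 ± 0.396 CPM in the combination and 4.04 ± 0.340 CPM in monotherapy (edgeR adjusted p = 0.0232). Espl1, separase, which cuts Rad21, had 13.8 ± 5.62 CPM in the combination and 4.88 ± 0.968 CPM in monotherapy (edgeR adjusted p = 0.0431). None of these 3 calls held without monotherapy library 1, 2 or 3, without combination library 2, with library totals as the scaling, or with either covariate. Cdca5 and Espl1 also did not pass in limma-voom (adjusted p = 0.0603 and 0.0740) or with a filter of 1 CPM (0.0521 and 0.0509), which left them passing in 7 of 16 settings each. The adjusted p over the 16 settings went up to 0.270 for Cdca5, 0.159 for Sgo1 and 0.272 for Espl1.

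Sgo2a, the second shugoshin, had a log2 fold change of 1.15 ± 0.32 (SE; edgeR adjusted p = 0.212), and it passed in 2 of 16 other settings, DESeq2 (adjusted p = 0.0310) and edgeR without a count filter (0.0302), over a range of 0.0302 to 0.657. Pttg1, securin, which restrains separase, lay at 25.2 ± 6.83 CPM in the combination and 24.7 ± 4.47 CPM in monotherapy. The loader genes Nipbl and Mau2 had log2 fold changes of -0.12 and -0.03, the release factor Wapl -0.03, its partners Pds5a and Pds5b -0.06 and -0.09, and the ring subunits Stag1 and Stag2 -0.04 each. Ctcf, which positions cohesin at loop anchors, and the Smc3 deacetylase Hdac8 had -0.06 and 0.12. The lowest adjusted p among these 9 genes was 0.958 in edgeR.

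Of 4 condensin II genes, Ncapg2 rose and 3 did not pass. Ncapg2 had 21.7 ± 3.35 CPM in the combination and 11.1 ± 0.361 CPM in monotherapy (SD, n = 3 each). Its log2 fold change was 0.96 ± 0.15 (SE; edgeR adjusted p = 0.0186). It did not pass without monotherapy library 1, 2 or 3, without combination library 2, with library totals or with either covariate, where adjusted p went up to 0.137. Ncaph2, Ncapd3 and the condensin II inhibitor Mcph1 had log2 fold changes of 0.11, 0.03 and 0.20. None of the 6 genes of the SMC5/6 complex, which acts in DNA repair, passed in edgeR, and 0 had a p under 0.05 before adjustment, with a list median of 0.10 and Smc5 at 0.16 ± 0.12 (SE). Nsmce1, a subunit of that complex at a log2 fold change of 0.17, passed in 1 of 16 other settings, without combination libraries 2 and 3 (0.64; adjusted p = 0.0327), and was at 0.66 with Dct and Tyrp1 as a covariate (adjusted p = 0.179).

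Of 9 genes on the mitotic chromosome list, whose products are not all chromosome proteins, 6 rose and 3 did not pass, with a list median of 1.38. Top2a, which untangles DNA alongside condensin, had 163 ± 20.4 CPM in the combination and 62.6 ± 1.49 CPM in monotherapy (SD, n = 3 each; edgeR adjusted p = 0.00351). Kif4, a kinesin that brings condensin I to chromosome arms, had 11.8 ± 1.94 CPM in the combination and 4.24 ± 0.405 CPM in monotherapy (edgeR adjusted p = 0.00691), and it did not pass without monotherapy library 1 or 3 (adjusted p = 0.0686 and 0.0612; 1.77e-09 to 0.0686 over the 16 other settings). Nusap1, Anln, Mki67 and Kif22 had log2 fold changes of 1.65, 1.82, 1.55 and 1.00. Top2a and Nusap1 passed in all 16 other settings. Anln, Mki67 and Kif22 did not pass without monotherapy library 1, 2 or 3 or with either covariate. Anln also did not pass in limma-voom, and Mki67 and Kif22 did not pass without combination library 2 or with library totals. The highest adjusted p over the 16 settings was 0.199 for Anln, 0.217 for Mki67 and 0.157 for Kif22. For Mki67 the log2 fold change was 0.82 without combination libraries 2 and 3 (adjusted p = 0.0108) and 0.81 with Dct and Tyrp1 as a covariate.

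The members were then set against 12 mitosis genes and 12 genes of DNA replication. The mitosis genes, among them Cdk1, Ccnb1 and Plk1, summed to 230, 196 and 247 CPM in the combination and 70.8, 94.9 and 78.8 CPM in monotherapy. Of these genes 12 of 12 were higher, against 0.951% of all genes tested. The replication genes, among them Pcna and the Mcm helicase genes, summed to 1127, 1079 and 900 CPM in the combination and 1001, 921 and 905 CPM in monotherapy. Of these, 2 of 12 were higher, Rrm2 and Tyms, at log2 fold changes of 1.36 and 1.24. Pcna and the Mcm genes make up most of that sum. Esco2 relative to the mitosis sum was higher by 0.50 on the log2 scale in the combination, with every combination library above every monotherapy library. The separation was narrow, with combination library 3 at -4.32 and monotherapy library 1 at -4.35. Ncapg relative to that sum overlapped between the groups, at a difference of -0.07, while Ncaph and Ncapd2 were lower without overlap, at differences of -0.38 and -0.93. The cohesin ring genes, Esco1 and the condensin core were lower relative to it without overlap, at differences of -1.67 to -1.19. The mean mitosis sum was itself higher in the combination, by 1.46 on the log2 scale. A gene that did not change, or rose by less, is therefore lower relative to it by arithmetic. No member passed as lower in edgeR.

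Relative to the replication sum, Esco2, Ncapg and Ncaph were higher by 1.83, 1.26 and 0.95 on the log2 scale, without overlap, and Smc1a and Smc3 were lower without overlap, at differences of -0.34 and -0.26. Rad21, Esco1, Smc2, Smc4 and Ncapd2 overlapped. The replication sums overlapped between the groups. The ratios to both sums describe the libraries and were not tested.

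**Figure D4:**
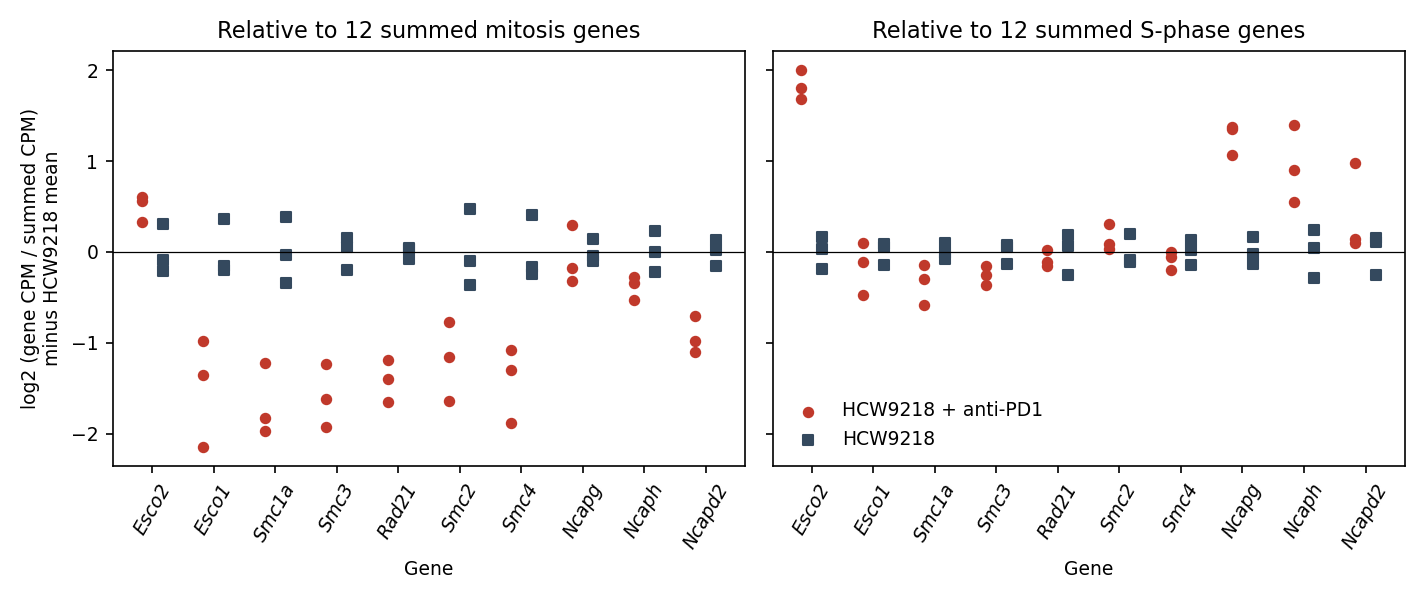
Log2 of each gene's CPM over the summed CPM of 12 mitosis genes (left) or 12 replication genes (right), minus the monotherapy mean, per library; combination libraries are red circles left of the dark monotherapy squares. On the left Esco2 lies above 0 and Ncapg around 0 in the combination, while the ring and core genes lie below 0; on the right Esco2, Ncapg and Ncaph lie above 0.

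The genes whose pattern over the 6 libraries was nearest to that of Esco2, by root mean square difference of centred log2 CPM among 9872 candidates, were Klra13-ps (0.11), Ckap2l (0.16), Cdk1 (0.19), Birc5 (0.20) and Gzmb (0.20). The spread of Esco2 itself on that scale was 0.98, and most of it is the difference between the groups. Each of these neighbours was higher in the combination, at log2 fold changes of 1.62 to 1.91. The measure thus mostly picks genes with a group difference like that of Esco2. Klra13-ps, a pseudogene of the Ly49 receptor family, had 127, 105 and 133 CPM in the combination and 35.6, 38.4 and 25.1 CPM in monotherapy, and its reads are uncertain because Ly49 genes have near-identical copies. Ckap2l and Birc5 act in the mitotic spindle and Cdk1 drives entry into mitosis. Gzmb, a granzyme of killer cells, had 9.29, 8.54 and 7.45 CPM in the combination and 2.95, 2.79 and 2.46 CPM in monotherapy. Among the members Ncapg was the most like Esco2 (0.32), and 39 tested genes other than Esco2 were nearer than it.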

How the data were processed

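RNA of sorted CD8+ T cells was sequenced in 6 libraries, 3 per group, from oligo(dT)-enriched mRNA (NEBNext Ultra II kit), per the labels' protocols. The authors deposited raw counts, whole reads per gene. The submitters' processing notes name DESeq2, featureCounts with Subread 1.5.2, and STAR 2.5.2b, without their settings; no strand option, multi-mapping rule or build was found in the sources. Of the genes found in GENCODE M21 (GRCm38), 91.4% had the same coordinates. Both deposited count tables held identical values in 6 of 6 libraries; 6 columns that matched no sample were left out.

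The counts were tested in edgeR 4.0.16 under R 4.3.3 (filterByExpr, TMM factors of 0.901 to 1.12, quasi-likelihood test without covariates, adjusted p threshold 0.05). SE is the coefficient over the square root of F. CPM and RPKM are TMM-scaled. Groups and replicate numbers come from the sample titles, and p-values measure the spread between these mice. Ratios used exact permutation tests. Alternatives used DESeq2 1.42.0 and limma 3.58.1, other scalings and filters, left-out libraries, covariates on log2(CPM + 1) and the replicate number. The test was checked on simulated counts. All 10 members were named, with passing genes and up to 4 of smallest p per related list, and 5 neighbours of Esco2 with at least 2 CPM. Sgo2a was matched by gene ID. The members and lists were chosen with earlier results of these data known.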

Additional observations from a re-analysis of the deposited data

How the results depend on the processing

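Esco2 and Ncapg passed in all 16 other settings and no member was lower in any. The number of members higher was 2 or 3 throughout. Genes higher over the whole table numbered 144, and 340 without a count filter, 284 in DESeq2, 231 with the replicate block, 834 without combination libraries 2 and 3, and 42 with the B cell covariate; leaving out 1 library gave 32 to 233. Genes lower numbered 20, and in these settings 113, 73, 57, 628 and 3, and 123 with the Dct and Tyrp1 covariate; leaving out 1 library gave 2 to 49. The fit without combination libraries 2 and 3 keeps a single combination library and assumes that it varies as the other libraries do. Related genes higher numbered 10, and 4 with library totals, 5 with the Dct and Tyrp1 covariate and 3 with the B cell covariate; leaving out 1 library gave 2 to 11. Without combination libraries 2 and 3, 1 related gene was lower, Ddx11, a helicase of cohesion (log2 fold change -0.77), named after its value was seen.

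The log2 ratio of condensin to cohesin SMC genes differed by 0.24, and by 0.45 without combination libraries 2 and 3; leaving out 1 library gave 0.13 to 0.31. The ratio of Esco2 to Esco1 ran from 1.75 to 2.20 and that of condensin I to II from 0.46 to 0.66 when 1 library was left out. With the replicate block the differences of these 3 ratios stay the same by arithmetic, because the groups are of equal size. That setting is therefore no check of them (exact sign-flip p = 0.25, the smallest 3 pairs can give).

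Same-numbered libraries correlated at 0.15, -0.06 and 0.28 in their deviations from the group means. Combination library 2 correlated more with monotherapy library 1 (0.12) than with the library of its own number. The labels do not say that the numbers pair the mice, and with 3 libraries per group these values cannot decide it. The block changed no call among the 10 members.

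Signs turned for genes that did not pass in the main test. Esco1 was at -0.033 with library totals, -0.030 in limma-voom, -0.029 with the replicate block and -0.11 with the B cell covariate, and at -0.15 to 0.22 when 1 library was left out. Rad21 was at -0.0031 with the B cell covariate, and at -0.021 to 0.12 when 1 library was left out; Smc4 ran from -0.048 to 0.19. Without combination libraries 2 and 3, Mcph1 was at -0.22, Ncapd3 at -0.33 and Nsmce4a at 0.22, and with the Dct and Tyrp1 covariate they were at -0.21, -0.33 and 0.25. When 1 library was left out, Ncapd3 ran from -0.15 to 0.20, Nsmce4a from -0.36 to 0.10, Nsmce1 from -0.13 to 0.42 and Nsmce2 from -0.036 to 0.43. The cause was not tested. Depth limits the lowest members, Esco2 at 112 to 139 counts per monotherapy library, and these limits cover counting error only.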

Other observations

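Combination library 3 had the highest Ncapd2 and Ncaph of the 6 libraries (104 and 17.6 CPM) and the lowest Esco1, Smc3, Smc1a and Smc4 (86.2, 146, 237 and 642 CPM). It also had the largest TMM factor (1.12) and the most Dct and Tyrp1 counts (743). Esco2 was within 11.8 to 13.5 CPM in its group and did not share that spread: its coefficient of variation was 6.72% in the combination, the lowest of the 10 members after Rad21 (5.49%). In monotherapy it was 14.4%, and only Smc2 (17.6%) and Smc4 (14.6%) were higher among the 10 members. Beyond the covariate fits, the part of the Dct and Tyrp1 counts in these values was not tested.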
